A study of Mus musculus with 6 samples.

Results

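The genes of cholesterol and fatty acid synthesis were compared between H2AX knockout and wild-type mouse embryonic fibroblasts (MEFs). The set was a list of 39 genes chosen by name: 18 enzymes of sterol synthesis, 5 regulators of the sterol-sensing transcription factors, 1 sterol transport protein, 10 enzymes of fatty acid synthesis and modification, and 5 genes of liver X receptor (LXR) signaling and cholesterol export. Of these, 37 were measured, among 19938 genes in all. Acat2 and Nr1h2 had no probe set that names them alone and are not analysed here. Total RNA was hybridized to 6 Affymetrix Mouse Gene ST arrays, 3 from H2AX KO MEFs and 3 from wild-type MEFs. Both kinds of cells came from the same laboratory, grew in DMEM with fetal bovine serum and received no treatment, so that the genotype is the only labelled difference. The sources used here do not say how many embryos, lines or cultures stand behind the arrays of a genotype. P-values therefore measure the spread between these arrays, which may be technical. All values are log2 expression as deposited by the authors, and 1 unit is a 2-fold difference.

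H2ax itself, the deleted gene, measured 7.69, 7.77 and 7.67 on the knockout arrays, against 8.96, 9.18 and 9.00 on the wild-type arrays (adjusted p = 5.81e-07, limma). Median log2 values of the 6 arrays lay between 6.06 and 6.12. Fibroblast markers were well measured in both genotypes: the mean level of the 10 markers was 11.09 to 11.13 on the knockout arrays and 10.71 to 10.78 on the wild-type arrays, and none lay below the median of all values, 6.09. Of the other cell types these cultures could hold, 8 of 10 macrophage markers, 8 of 9 measured adipocyte markers and 6 of 8 epithelial markers had a mean below that median. In RNA from whole cultures, fewer cells that express a gene and less RNA per cell cannot be told apart.

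Cholesterol is built from acetyl-CoA by way of mevalonate, isoprenoid units, squalene and lanosterol. Fatty acids are built from the same precursor, then desaturated and elongated. The genes of both pathways are activated by the sterol regulatory element-binding proteins (SREBPs), SREBP2 mainly on the sterol side and SREBP1 mainly on the fatty acid side. These factors are made as membrane proteins of the endoplasmic reticulum. Their escort SCAP carries them to the Golgi for cleavage when sterols are scarce, and the INSIG proteins hold SCAP back when sterols are plentiful. LXRs act on the other side of the balance: when activated by oxysterols they turn on the export pumps ABCA1 and ABCG1 and the ubiquitin ligase MYLIP, which removes the LDL receptor. In fibroblasts, as in most dividing cells, the sterol pathway supplies membrane cholesterol and the isoprenoids that anchor small GTPases.

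Promoter sequence is shown for the members with the largest called changes in the sterol and fatty acid arms and at the export pump, for the paralog pairs with a window each whose members differed in their call, and for the only member window with a match to the sterol regulatory element. The windows run from 250 bases before to 50 bases after the start of the gene in RefSeq, assembly GRCm38.p6, and are written on the strand of the gene. For Insig2, which has 3 windows, the window with the most matches is given. Capitals mark matches on either strand to the sterol regulatory element TCACNCCAC, to the CCAAT box, which also reads ATTGG and is the binding letters of the SREBP partner NF-Y, and to the E-box CACGTG, a site of basic helix-loop-helix factors such as the SREBPs. No matches overlapped in these windows.
Mvd chr8:122443373-122443672 (-): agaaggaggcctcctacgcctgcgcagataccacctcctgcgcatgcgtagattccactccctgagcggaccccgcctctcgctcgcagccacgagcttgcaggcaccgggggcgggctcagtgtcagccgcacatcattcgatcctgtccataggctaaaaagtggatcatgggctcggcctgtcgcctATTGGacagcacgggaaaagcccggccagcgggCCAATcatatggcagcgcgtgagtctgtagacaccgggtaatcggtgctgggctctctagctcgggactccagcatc
Cyp51 chr5:4104648-4104947 (-): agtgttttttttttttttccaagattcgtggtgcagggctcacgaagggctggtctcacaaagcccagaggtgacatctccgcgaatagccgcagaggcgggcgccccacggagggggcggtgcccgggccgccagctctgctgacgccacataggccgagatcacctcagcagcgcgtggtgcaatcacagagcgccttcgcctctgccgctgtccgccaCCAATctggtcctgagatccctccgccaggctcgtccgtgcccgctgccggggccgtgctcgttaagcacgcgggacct
Hsd17b7 chr1:169969156-169969455 (-): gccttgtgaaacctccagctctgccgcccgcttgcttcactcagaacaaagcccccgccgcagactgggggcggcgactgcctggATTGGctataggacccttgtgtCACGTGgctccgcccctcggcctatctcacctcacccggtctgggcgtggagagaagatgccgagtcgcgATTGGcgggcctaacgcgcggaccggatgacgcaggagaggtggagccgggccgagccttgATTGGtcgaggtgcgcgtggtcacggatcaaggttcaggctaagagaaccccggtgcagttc
Acss2 chr2:155517793-155518092 (+): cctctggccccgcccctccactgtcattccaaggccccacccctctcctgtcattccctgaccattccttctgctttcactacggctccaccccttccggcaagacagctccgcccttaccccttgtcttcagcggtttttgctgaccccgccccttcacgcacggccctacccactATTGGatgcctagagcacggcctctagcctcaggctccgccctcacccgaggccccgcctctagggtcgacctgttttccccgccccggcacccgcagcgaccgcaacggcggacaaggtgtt
Elovl5 chr9:77917115-77917414 (+): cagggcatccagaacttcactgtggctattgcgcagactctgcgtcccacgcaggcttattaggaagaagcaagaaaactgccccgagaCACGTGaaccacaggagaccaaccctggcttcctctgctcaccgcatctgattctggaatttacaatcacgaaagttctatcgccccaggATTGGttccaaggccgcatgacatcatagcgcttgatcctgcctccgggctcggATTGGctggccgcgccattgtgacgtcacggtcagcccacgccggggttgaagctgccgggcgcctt
Elovl6 chr3:129532136-129532435 (+): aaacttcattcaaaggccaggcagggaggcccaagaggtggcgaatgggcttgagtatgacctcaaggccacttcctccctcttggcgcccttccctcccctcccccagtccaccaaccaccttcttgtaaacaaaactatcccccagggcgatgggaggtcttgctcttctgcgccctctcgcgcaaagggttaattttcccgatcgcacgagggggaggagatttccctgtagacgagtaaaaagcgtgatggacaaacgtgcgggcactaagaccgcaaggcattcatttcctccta
Insig1 chr5:28071162-28071461 (+): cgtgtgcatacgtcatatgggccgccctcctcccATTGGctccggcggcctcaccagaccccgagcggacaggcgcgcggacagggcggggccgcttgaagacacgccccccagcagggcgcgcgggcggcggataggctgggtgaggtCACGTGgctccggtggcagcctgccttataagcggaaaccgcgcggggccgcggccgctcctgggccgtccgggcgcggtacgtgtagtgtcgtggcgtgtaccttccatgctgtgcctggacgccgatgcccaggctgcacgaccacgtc
Insig2 chr1:121332540-121332839 (-): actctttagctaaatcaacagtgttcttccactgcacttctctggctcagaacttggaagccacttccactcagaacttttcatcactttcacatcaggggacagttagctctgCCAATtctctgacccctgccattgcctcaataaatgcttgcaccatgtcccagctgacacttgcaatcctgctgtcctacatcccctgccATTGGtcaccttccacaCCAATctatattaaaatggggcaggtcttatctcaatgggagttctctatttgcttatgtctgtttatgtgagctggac
Abca1 chr4:53159846-53160145 (-): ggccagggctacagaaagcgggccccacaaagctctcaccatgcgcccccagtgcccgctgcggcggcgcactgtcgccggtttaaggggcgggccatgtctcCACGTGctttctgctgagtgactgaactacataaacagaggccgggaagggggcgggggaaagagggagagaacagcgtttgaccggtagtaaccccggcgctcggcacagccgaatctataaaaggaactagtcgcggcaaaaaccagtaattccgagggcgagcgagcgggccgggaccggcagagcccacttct
Hmgcs1 chr13:119690101-119690400 (+): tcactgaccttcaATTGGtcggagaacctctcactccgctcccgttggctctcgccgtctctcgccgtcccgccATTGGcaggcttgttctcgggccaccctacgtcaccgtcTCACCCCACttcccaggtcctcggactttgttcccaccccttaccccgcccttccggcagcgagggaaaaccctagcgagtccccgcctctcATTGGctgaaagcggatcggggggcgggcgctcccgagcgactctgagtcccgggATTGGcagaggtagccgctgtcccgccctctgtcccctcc

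At least 1 promoter window was listed for 29 of the 37 measured members, 38 windows in all. The CCAAT box occurred in 24 of these 38 windows (63.2%), against 37.4% of all 32851 windows in the table. Counted by gene, all 14 sterol enzymes with a window held it in at least 1, and 4 of the 7 fatty acid enzymes with a window did, against 41.1% of all genes. In the sequences above, Hsd17b7, which was lower in knockout cells, carried 3 CCAAT boxes, Mvd carried 2 and Cyp51 carried 1. The E-box was found in 7 of the 29 members with a window, against 8.09% of all genes. The sterol regulatory element was found in 1 of the 38 windows, that of Hmgcs1, and in 1.24% of all windows. Such a match is a description of the letters, not a measured binding site.

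Of the 37 measured members, 18 rose and 6 fell in H2AX KO MEFs at an adjusted p under 0.05 (limma, adjusted over all genes), and 13 did not pass. Over all 19938 genes, 33.4% passed, 18.4% as higher and 15.0% as lower. Of the members 48.6% rose and 16.2% fell. The share over all genes includes dim genes, whereas most members were brighter. Without the genes of lowest mean signal, 3095 of 9969 genes rose and 2399 fell, against 18 and 6 of 35 members. Against these brighter genes the excess of rises was smaller, and the share of falls was below theirs. These differences in share were not tested. The median log2 fold change of the members was 0.20, and that of all genes was 0.02. Changes were small in size: only Abca1, which fell, differed by more than 2-fold as well, where 5.30% of all genes passed both thresholds, 2.12% as higher and 3.18% as lower. The 3 knockout arrays lay wholly above the 3 wild-type arrays for 22 members and wholly below them for 7, and over all genes this was so for 25.3% and 19.5%, or 44.8% in either direction. With knockout array 3 left out, 11 members rose, and with each of the other arrays left out in turn 12 to 16 did. Over all genes, 2859 rose without knockout array 3, against 3676 with all arrays.

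**Figure D1:**
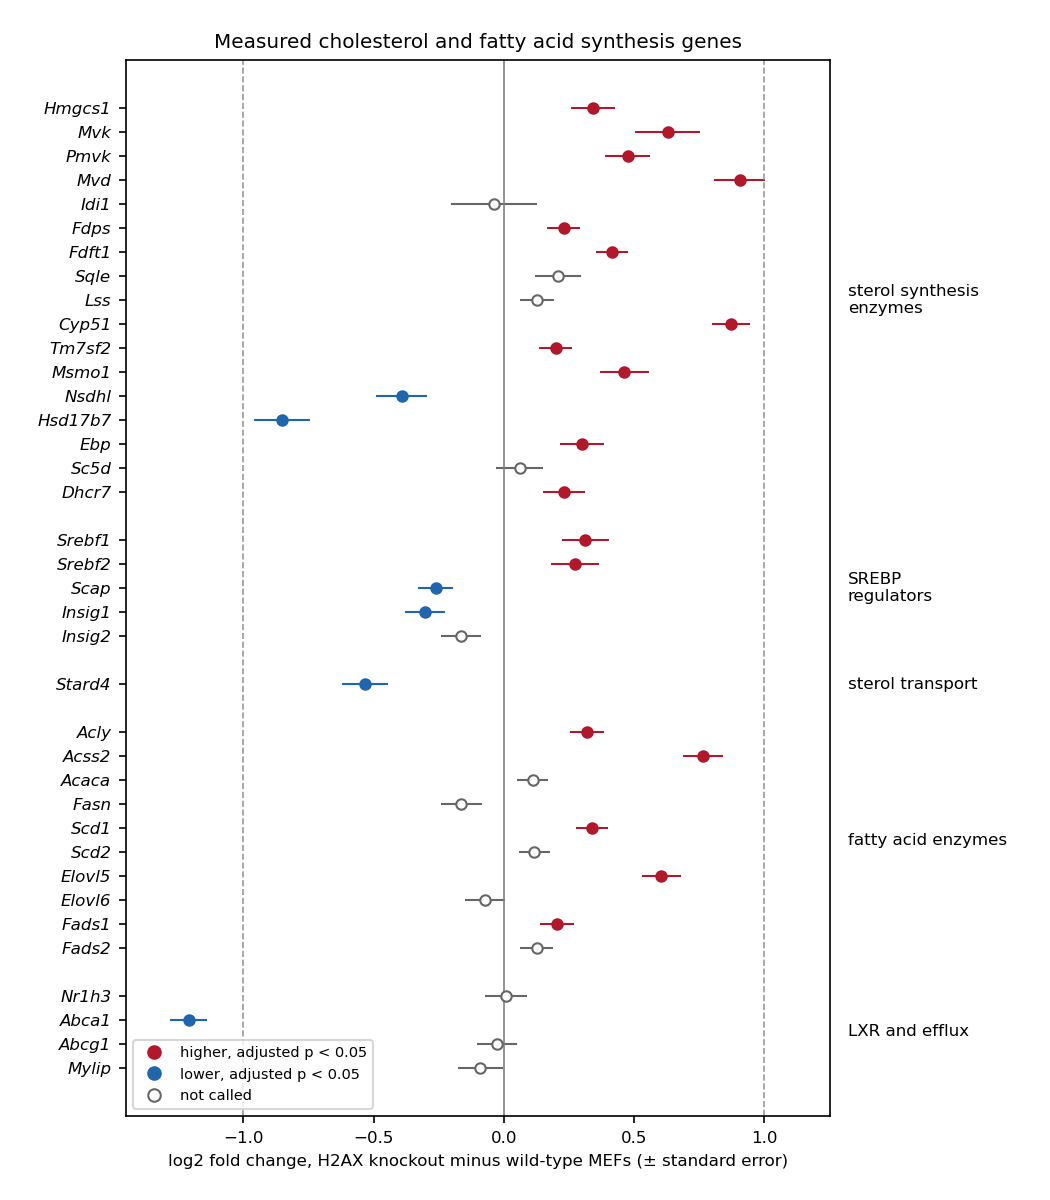
Log2 fold change (H2AX knockout minus wild-type MEFs, 3 arrays each) of the 37 measured members by role, with the standard error from limma as bars and dashed lines at a 2-fold difference. Filled points passed an adjusted p under 0.05 (18 higher in red, 6 lower in blue), open points did not, and Abca1 alone lies beyond a dashed line.

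Among the sterol enzymes, 11 of 17 measured rose (64.7%), 2 fell (11.8%) and 4 did not pass, with a median log2 fold change of 0.23. Over all genes 18.4% rose and 15.0% fell. Without the genes of lowest mean signal, 3095 of 9969 genes rose and 2399 fell, and the sterol enzymes kept 11 and 2 of 17. In the early part of the pathway, which ends in squalene, 6 of 7 measured enzymes rose (85.7%), with a median log2 fold change of 0.42. None of the 7 fell, also at an unadjusted p under 0.05. The largest rise was that of Mvd, the decarboxylase that turns mevalonate diphosphate into isopentenyl diphosphate. It measured 8.63, 9.02 and 8.91 on the knockout arrays, against 7.90, 7.93 and 8.03 on the wild-type arrays, a 1.87-fold difference (log2 fold change 0.90 ± 0.10 SE, adjusted p = 6.4e-05, limma). Every knockout array was above every wild-type array by more than the spread within either genotype.

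The kinases that act just before Mvd rose with it. Mvk, which phosphorylates mevalonate, averaged 9.01 ± 0.10 in knockout and 8.38 ± 0.27 in wild-type cells (SD, n = 3 each, log2 fold change 0.63, adjusted p = 0.00309, limma). Pmvk, which adds the next phosphate, averaged 7.67 ± 0.08 in knockout and 7.19 ± 0.15 in wild-type cells (SD, n = 3 each, log2 fold change 0.48, adjusted p = 0.00197, limma). Hmgcs1, the synthase that makes HMG-CoA and whose window above holds the sterol regulatory element, had a log2 fold change of 0.34 ± 0.08 (SE, adjusted p = 0.0106, limma). At the end of this stretch Fdft1, the squalene synthase, measured 11.39, 11.42 and 11.44 on the knockout arrays, against 10.95, 11.06 and 10.99 on the wild-type arrays (log2 fold change 0.42, adjusted p = 0.000509, limma), and a further probe set for this gene gave 0.38. Fdps, which joins isoprenoid units into farnesyl diphosphate, rose by only 0.23 log2 units (adjusted p = 0.0211, limma). Its call was lost without knockout array 3, without wild-type array 1 or without wild-type array 2, with adjusted p of 0.0846, 0.0633 and 0.0626.

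Idi1, the isomerase between Mvd and Fdps, was the exception in the early pathway. It measured 10.14, 9.44 and 9.87 on the knockout arrays, against 9.63, 9.90 and 10.03 on the wild-type arrays. The genotypes overlapped, and knockout array 2 was the lowest of the 6. Its log2 fold change was -0.04 with a 95% interval of -0.41 to 0.33 (adjusted p = 0.899, limma), so that a rise as large as that of Fdps is within the interval. The other probe set for Idi1 gave -0.11.

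After squalene the enzymes moved in both directions: 5 of 10 rose, 2 fell and 3 did not pass, with a median log2 fold change of 0.20. Both directions were common over all genes too, where 18.4% rose and 15.0% fell. Among the brighter genes, 3095 of 9969 rose and 2399 fell. With only 10 enzymes, the 2 falls beside rises do not set this part of the pathway apart from all genes. The differences in share were not tested. Cyp51, the demethylase that acts first on lanosterol, had the clearest rise. It measured 10.03, 9.85 and 9.94 on the knockout arrays, against 8.99, 9.07 and 9.15 on the wild-type arrays, a 1.83-fold difference (log2 fold change 0.87 ± 0.07 SE, adjusted p = 1.11e-05, limma).

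The largest fall in the pathway was that of Hsd17b7, a keto-reductase of the same sequence of steps that strips methyl groups from the sterol ring. It measured 8.93, 8.54 and 8.77 on the knockout arrays, against 9.44, 9.64 and 9.72 on the wild-type arrays (log2 fold change -0.85 ± 0.11 SE, adjusted p = 0.000193, limma). Nsdhl, the dehydrogenase that works beside it, measured 10.03, 9.88 and 10.03 on the knockout arrays, against 10.19, 10.34 and 10.57 on the wild-type arrays (log2 fold change -0.39, adjusted p = 0.0117, limma). In the same sequence of steps the oxidase Msmo1 was higher, at 11.10, 10.74 and 11.03 on the knockout arrays and 10.46, 10.54 and 10.47 on the wild-type arrays (log2 fold change 0.46, adjusted p = 0.0037, limma). The genotypes did not overlap for any of these 3 genes, so that genes for neighboring reactions differed in opposite directions.

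The remaining late enzymes changed less. Tm7sf2, a sterol reductase, Ebp, a sterol isomerase, and Dhcr7, the reductase of a last step to cholesterol, had log2 fold changes of 0.20, 0.30 and 0.23 and adjusted p of 0.0366, 0.0217 and 0.0496 (limma). All 3 of these calls were fragile. Tm7sf2 lost its call without knockout array 2 or 3 or wild-type array 1 or 2 (adjusted p of 0.0543, 0.153, 0.0925 and 0.115), Ebp without knockout array 1 or 3 or wild-type array 1 (adjusted p of 0.0727, 0.0676 and 0.0721), and Dhcr7 without any single array other than wild-type array 3 (adjusted p between 0.0693 and 0.141).

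Sqle, the epoxidase that opens the sterol branch and a rate-limiting step, measured 10.97, 10.80 and 10.94 on the knockout arrays, against 10.53, 10.82 and 10.73 on the wild-type arrays. It did not pass (log2 fold change 0.21, adjusted p = 0.103, limma), but passed at 0.26 without knockout array 2 (adjusted p = 0.0491). Lss, which closes the sterol rings, and Sc5d, a desaturase of a late step, had log2 fold changes of 0.13 and 0.06 (adjusted p = 0.184 and 0.675, limma). The 95% interval of Lss reached 0.27 and that of Sc5d reached 0.26.

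The count of sterol enzymes that rose, 11 with all arrays, depended on single arrays, as did that of all genes, 3676 with all arrays. Without knockout array 3 it was 7 (2859 over all genes), and without wild-type array 1 it was also 7 (3054 over all genes). The unmoderated test of the study's methods called 6 (2544 over all genes). That test did not call Hmgcs1, Mvk, Msmo1, Ebp, Dhcr7 or Nsdhl, whose adjusted p in it lay between 0.0609 and 0.145. The enzymes that fell stayed at 2 with each array left out. Mvd, Cyp51, Fdft1, Pmvk and Hsd17b7 kept their calls under every alternative setting tried.

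Nsdhl and Ebp lie on the X chromosome. The Y-linked genes Kdm5d and Eif2s3y differed between the genotypes: Kdm5d measured 4.79, 4.84 and 5.13 on the knockout arrays, against 7.71, 7.86 and 7.84 on the wild-type arrays, and the mean of Eif2s3y was 4.05 in knockout and 8.09 in wild-type cells. Xist, the RNA of the inactive X chromosome, averaged 4.56 in knockout and 4.53 in wild-type cells. For both Y-linked genes all knockout arrays lay below all wild-type arrays. This difference between the cells runs with the genotype, so that for every gene compared here their parts cannot be told apart. The part of the sex chromosomes in the values of Nsdhl and Ebp was not tested. Sc5d, Elovl5 and Scap lie on chromosome 9 with H2ax, with 23, 347 and 648 protein-coding genes between each of them and H2ax in the order of the RefSeq table.

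The genes of the SREBP pathway itself moved apart. The transcription factors rose: Srebf2, the factor of the sterol side, measured 10.60, 10.98 and 10.72 on the knockout arrays, against 10.46, 10.54 and 10.48 on the wild-type arrays (log2 fold change 0.27 ± 0.09 SE, adjusted p = 0.0472, limma). Srebf1, the factor of the fatty acid side, measured 8.75, 9.08 and 8.95 on the knockout arrays, against 8.65, 8.67 and 8.51 on the wild-type arrays (log2 fold change 0.31 ± 0.09 SE, adjusted p = 0.0235, limma). Knockout array 2 was the highest array for both genes, whereas the genotypes did not overlap for either.

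Of the genes whose products hold or escort the SREBPs, Insig1 and Scap fell. Insig1, itself a known SREBP target, measured 9.72, 9.57 and 9.72 on the knockout arrays, against 9.85, 10.03 and 10.04 on the wild-type arrays (log2 fold change -0.30 ± 0.08 SE, adjusted p = 0.0127, limma). Scap measured 9.18, 9.38 and 9.24 on the knockout arrays, against 9.50, 9.54 and 9.54 on the wild-type arrays (log2 fold change -0.26 ± 0.07 SE, adjusted p = 0.0146, limma). Insig2, the paralog of Insig1, measured 9.15, 8.91 and 9.12 on the knockout arrays, against 9.17, 9.25 and 9.25 on the wild-type arrays. Its knockout arrays also lay below every wild-type array, but by little, and it did not pass (log2 fold change -0.16, 95% interval -0.34 to 0.01, adjusted p = 0.146, limma).

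These 4 calls were small, at most 1.24-fold in size, and each was lost with at least 1 of the arrays left out. Srebf1 lost its call without knockout array 2 or 3 or wild-type array 3 (adjusted p of 0.0559, 0.0795 and 0.0887), and Srebf2 without any single array other than knockout array 1 (adjusted p between 0.0873 and 0.121). Scap lost its call without knockout array 1 or 3 or wild-type array 2 (adjusted p of 0.0531, 0.0631 and 0.0544), and Insig1 without wild-type array 2 or 3 (adjusted p of 0.0586 and 0.0519). The unmoderated test called Scap alone among the regulators.

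Stard4, a soluble carrier that moves cholesterol between membranes and is known as an SREBP2 target, fell. It measured 8.45, 8.20 and 8.46 on the knockout arrays, against 8.80, 8.90 and 9.00 on the wild-type arrays (log2 fold change -0.53 ± 0.09 SE, adjusted p = 0.00109, limma). The genotypes did not overlap, and the call held under each alternative setting.

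Among the fatty acid enzymes, 5 of 10 rose and none fell at the adjusted p, nor at an unadjusted p under 0.05, with a median log2 fold change of 0.16. Over all genes 18.4% rose and 15.0% fell. Without the genes of lowest mean signal, 3095 of 9969 genes rose and 2399 fell, and the fatty acid enzymes kept 5 and 0 of 10. These differences in share were not tested. The largest rise was that of Acss2, which makes acetyl-CoA from acetate in the cytosol and nucleus. It measured 7.65, 7.62 and 7.74 on the knockout arrays, against 6.77, 7.01 and 6.93 on the wild-type arrays, a 1.70-fold difference (log2 fold change 0.76 ± 0.08 SE, adjusted p = 3.97e-05, limma). Acly, which makes acetyl-CoA from citrate, measured 10.10, 10.26 and 10.21 on the knockout arrays, against 9.88, 9.86 and 9.87 on the wild-type arrays (log2 fold change 0.32, adjusted p = 0.0038, limma). Acetyl-CoA is the shared precursor of sterols and fatty acids, and for both genes every knockout array lay above every wild-type array.

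The enzymes that turn acetyl-CoA into palmitate did not pass, and their difference from Acly and Acss2 was not tested. Fasn, the fatty acid synthase, measured 10.47, 10.76 and 10.58 on the knockout arrays, against 10.76, 10.79 and 10.75 on the wild-type arrays. Knockout arrays 1 and 3 lay below all wild-type arrays and knockout array 2 lay among them. Fasn did not pass (log2 fold change -0.16, 95% interval -0.34 to 0.01, adjusted p = 0.151, limma), but fell by 0.24 log2 units with knockout array 2 left out (adjusted p = 0.0207). Acaca, the acetyl-CoA carboxylase, had a log2 fold change of 0.11 with a 95% interval of -0.02 to 0.24 (adjusted p = 0.206, limma), and its knockout arrays all lay above its wild-type arrays.

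Of the enzymes that modify finished fatty acids, each family held a member that rose and a member that did not pass. Elovl5, an elongase of polyunsaturated fatty acids, measured 10.26, 10.12 and 10.16 on the knockout arrays, against 9.45, 9.64 and 9.64 on the wild-type arrays, a 1.52-fold difference (log2 fold change 0.61 ± 0.07 SE, adjusted p = 0.000159, limma). Elovl6, which elongates palmitate, had a log2 fold change of -0.07 with a 95% interval of -0.24 to 0.10 (adjusted p = 0.55, limma). The promoter window of Elovl5 above holds 2 CCAAT boxes and 1 E-box, and that of Elovl6 holds no match to these letters.

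Scd1, a desaturase that makes oleate, measured 11.92, 11.98 and 11.94 on the knockout arrays, against 11.55, 11.62 and 11.66 on the wild-type arrays (log2 fold change 0.34 ± 0.06 SE, adjusted p = 0.00194, limma). For its paralog Scd2 the log2 fold change was 0.12 (95% interval -0.02 to 0.25, adjusted p = 0.181, limma). Fads1 and Fads2, the desaturases of polyunsaturated fatty acids, had log2 fold changes of 0.20 and 0.13 (adjusted p = 0.0352 and 0.179, limma). The call of Fads1 was lost without any single array other than knockout array 1 (adjusted p between 0.0509 and 0.104). The difference between the members of a pair was not tested.

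**Figure D2:**
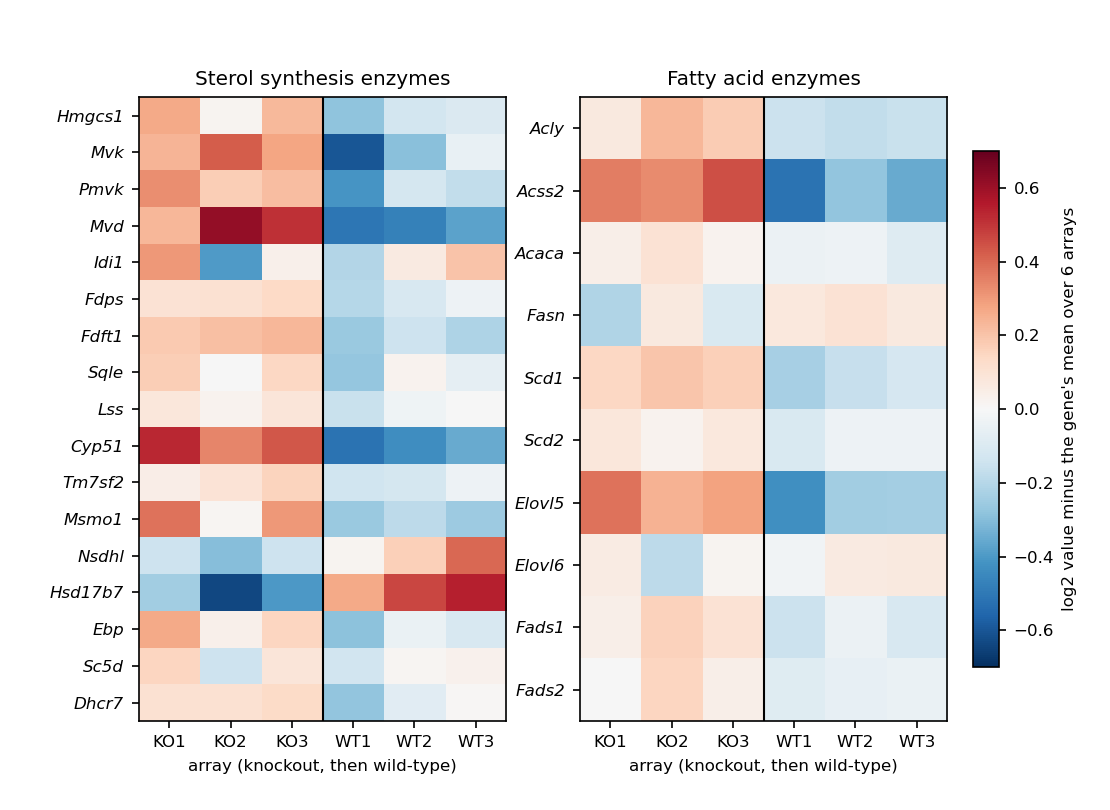
Log2 value of each gene on each array minus the mean of that gene over the 6 arrays, for the 17 measured sterol synthesis enzymes (left) and the 10 fatty acid enzymes (right), knockout arrays left of wild-type arrays. Most rows are red in the knockout columns and blue in the wild-type columns, Hsd17b7 and Nsdhl run the other way, and wild-type array 1 has the lowest wild-type value in all 17 sterol rows.

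Set against each other, 64.7% of the sterol enzymes and 50% of the fatty acid enzymes rose, against 18.4% of all genes. Of the brighter genes alone, 3095 of 9969 rose. The median log2 fold changes of the arms were 0.23 and 0.16, and all called falls among enzymes were sterol enzymes, Hsd17b7 and Nsdhl. These are descriptions of the lists, and the difference between the arms was not tested. For each array, the median over a list of the deviations from the mean of each gene summarises the arm in 1 value. For sterol enzymes it was 0.18, 0.04 and 0.15 on the knockout arrays, against -0.26, -0.11 and -0.05 on the wild-type arrays. For fatty acid enzymes it was 0.06, 0.16 and 0.09 on the knockout arrays, against -0.13, -0.05 and -0.10 on the wild-type arrays. The genotypes did not overlap in either arm. Over all genes the same median was -0.0025, 0.0124 and 0.0160 on the knockout arrays, against -0.0161, -0.0109 and -0.0121 on the wild-type arrays. There too the genotypes did not overlap, in the same order, but lay much closer together than in the arms.

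The arrays of a genotype were ordered differently in the arms. Knockout array 2 had the lowest median of the knockout arrays for sterol enzymes and the highest for fatty acid enzymes, and it was the lowest knockout array for 12 of 17 sterol enzymes (70.6%), 4 of 10 fatty acid enzymes (40.0%) and 41.1% of all genes. Wild-type array 1 was the lowest wild-type array for all 17 measured sterol enzymes, Hsd17b7 and Nsdhl included, for 7 of 10 fatty acid enzymes and for 47.2% of all genes. The median log2 fold change of the sterol enzymes was 0.19 without wild-type array 1, 0.26 without knockout array 2 and 0.29 without wild-type array 3, against 0.23 with all arrays.

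**Figure D3:**
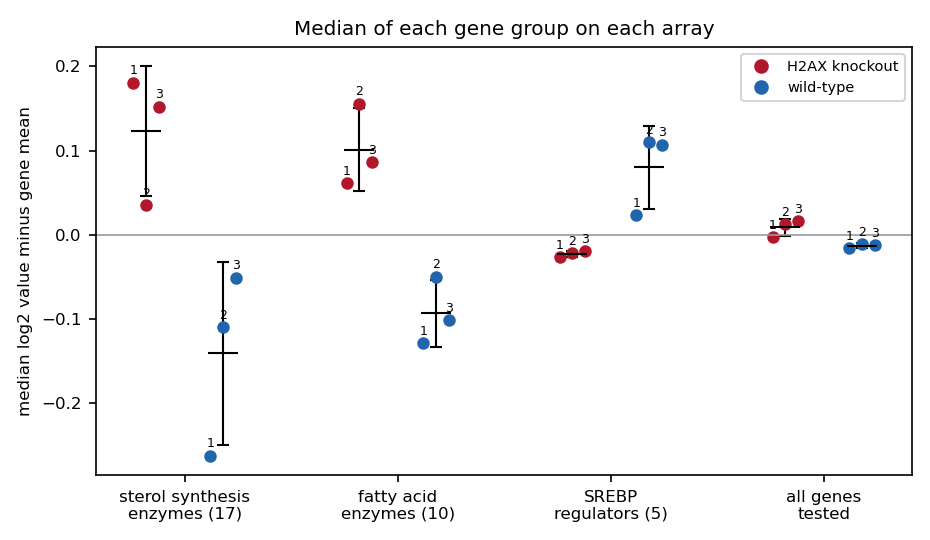
Median over each list of the log2 value minus the mean of the gene, 1 point per array with its replicate number, H2AX knockout (red) left of wild-type (blue), with the mean and SD of the 3 arrays as bars. The genotypes lie apart for sterol enzymes (means 0.12 and -0.14) and fatty acid enzymes (0.10 and -0.09). For the 5 regulators, of which 2 rose and 2 fell, the medians lie in the opposite order. For all genes tested they lie within 0.02 of 0, with the knockout arrays again above the wild-type arrays.

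On the export side, the only member that changed was Abca1, the pump that loads cholesterol onto apolipoprotein A-I. It measured 6.69, 6.50 and 6.62 on the knockout arrays, against 7.77, 7.88 and 7.80 on the wild-type arrays (log2 fold change -1.21 ± 0.07 SE, adjusted p = 8.16e-07, limma), so that its value was 2.31-fold higher in wild-type cells. This was the largest change of any member, and it held under every alternative setting. Abcg1, the partner pump, averaged 5.82 ± 0.01 in knockout and 5.85 ± 0.14 in wild-type cells (SD, n = 3 each, log2 fold change -0.03, adjusted p = 0.841, limma).

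Nr1h3, which encodes LXR alpha, measured 5.63, 5.66 and 5.52 on the knockout arrays, against 5.72, 5.62 and 5.46 on the wild-type arrays (log2 fold change 0.01, adjusted p = 0.963, limma). The signals of Nr1h3 and Abcg1 lay below the median of all values, where an array distinguishes levels poorly, and both fell out when the dimmer 50% of genes was left out. Mylip had a log2 fold change of -0.09 (95% interval -0.29 to 0.11, adjusted p = 0.504, limma). None of these 4 genes rose, also at an unadjusted p under 0.05.

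The members stand in a wider set of lipid genes. Of 9 measured genes for SREBP processing and turnover, 5 rose (55.6%) and 1 fell (11.1%), with a median log2 fold change of 0.26. Over all genes 18.4% rose and 15.0% fell. Without the genes of lowest mean signal, 4 of 7 rose and 1 fell, against 3095 and 2399 of 9969 genes. These differences in share were not tested. Mbtps1, the Golgi protease that makes the first cut in SREBPs, rose by 0.42 log2 units (adjusted p = 0.000963, limma), and Usp20, a deubiquitinase known to stabilize HMG-CoA reductase, by 0.47 (adjusted p = 0.000783, limma). Rnf145, a ubiquitin ligase that acts on SCAP and HMG-CoA reductase, fell by 0.31 log2 units (adjusted p = 0.00474, limma). The count of rises here was 2 without knockout array 3 and 3 without wild-type array 2. Over all genes, 2859 and 3060 rose in these settings, against 3676 with all arrays.

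The isoprenoid branch, which takes farnesyl diphosphate to ubiquinone, dolichol and prenylated proteins, held 13 measured genes. Of these, 3 rose and 3 fell (23.1% each way, against 18.4% and 15.0% of all genes). All 13 stayed when the genes of lowest mean signal were left out, where 3095 of 9969 genes rose and 2399 fell. Pdss2, a subunit of the synthase for the ubiquinone tail, rose by 1.12 log2 units (adjusted p = 1.81e-05, limma), and Rce1, the protease that trims prenylated proteins, by 0.73 (adjusted p = 1.2e-05, limma). Icmt, which methylates the same proteins, and Fntb, a subunit of farnesyltransferase, fell by 0.38 and 0.37 log2 units (adjusted p = 0.00712 and 0.0231, limma). The count of falls was 5 without knockout array 1, and 1 without knockout array 2, wild-type array 2 or wild-type array 3. Fntb lost its call in each of the last 3 cases, with adjusted p of 0.0558, 0.0711 and 0.074.

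Larger changes stood in sterol uptake, storage and oxidation, where 4 of 15 measured genes rose (26.7%) and 7 fell (46.7%), 3 of them by more than 2-fold in either direction. Over all genes 18.4% rose and 15.0% fell, and 5.30% passed with a change over 2-fold. Without the genes of lowest mean signal, 3 of 12 rose and 7 fell, against 3095 and 2399 of 9969 genes. These differences in share were not tested. Vldlr, a lipoprotein receptor of the LDL receptor family, measured 9.18, 8.76 and 9.07 on the knockout arrays, against 6.61, 6.66 and 6.51 on the wild-type arrays (log2 fold change 2.41, adjusted p = 8.87e-08, limma). Scarb1, the receptor for high-density lipoprotein, rose by 0.72 log2 units (adjusted p = 5.98e-05, limma). Ch25h, which makes an oxysterol that keeps SREBPs in the endoplasmic reticulum and activates LXR, measured 6.38, 6.18 and 6.44 on the knockout arrays, against 8.21, 8.47 and 8.21 on the wild-type arrays (log2 fold change -1.97, adjusted p = 2.17e-07, limma). Nceh1, a hydrolase of stored cholesterol esters, fell by 1.11 log2 units (adjusted p = 0.000136, limma). For these 4 genes the knockout and wild-type arrays did not overlap.

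Of 34 further genes of fatty acid and lipid synthesis, 15 rose (44.1%) and 3 fell (8.82%), with a median log2 fold change of 0.18. Over all genes 18.4% rose and 15.0% fell, with a median of 0.02. Without the genes of lowest mean signal, 13 of 25 rose and 2 fell, against 3095 and 2399 of 9969 genes. These differences in share were not tested. Elovl4, the elongase of very long chain fatty acids, measured 9.17, 8.59 and 9.10 on the knockout arrays, against 6.68, 6.65 and 6.50 on the wild-type arrays (log2 fold change 2.34, adjusted p = 7.85e-07, limma). Like Elovl5, it lies on the chromosome of H2ax. Fads3, of the same family as Fads1, rose by 0.68 log2 units (adjusted p = 2.67e-05, limma). Acsl4, which activates polyunsaturated fatty acids with coenzyme A, and Hacd1, a dehydratase of the elongation cycle, fell by 0.83 and 0.69 log2 units (adjusted p = 7.13e-05 and 2.22e-05, limma). Acsl4 lies on the X chromosome, like Nsdhl and Ebp. Without wild-type array 1, 6 genes of this list fell.

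Of 20 measured genes of fatty acid uptake, binding and oxidation, 3 rose (15.0%, against 18.4% of all genes). A further 7 fell (35.0%, against 15.0% of all genes), and the median log2 fold change was -0.05. Without the genes of lowest mean signal, 1 of 14 rose and 7 fell, against 3095 and 2399 of 9969 genes. Slc27a3, of the fatty acid transport protein family, and Pparg, the nuclear receptor of fat storage, rose by 1.11 and 1.07 log2 units (adjusted p = 9.26e-06 and 4.51e-06, limma). Slc27a1, a fatty acid transporter, and Plin2, a lipid droplet coat protein, fell by 0.95 and 0.88 log2 units (adjusted p = 6.35e-06 and 1.52e-05, limma). Pparg was the only adipocyte marker to pass of 9 measured. Adipoq and Lep, which define fat cells, averaged 4.74 and 4.54 in knockout and 4.73 and 4.56 in wild-type cells, below the median of all values, and the mean level of the 9 markers was 5.27 to 5.31 on the knockout arrays and 5.16 to 5.20 on the wild-type arrays.

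Of 11 measured genes listed as LXR partners or other LXR targets, 3 rose (27.3%) and 1 fell (9.09%), against 18.4% and 15.0% of all genes. Without the genes of lowest mean signal, 3 of 7 rose and 1 fell, against 3095 and 2399 of 9969 genes. With so few genes, these counts do not set the list apart from all genes. The list was made by name, and the tie of each gene to LXR was not tested. Pltp, the phospholipid transfer protein and an LXR target, measured 9.06, 9.19 and 9.22 on the knockout arrays, against 7.03, 7.04 and 7.41 on the wild-type arrays (log2 fold change 1.99, adjusted p = 3.58e-07, limma), opposite in direction to Abca1. Rxrb, a partner receptor of LXR, rose by 0.87 log2 units (adjusted p = 3.04e-05, limma), and Ncoa1, a coactivator of nuclear receptors, fell by 0.99 (adjusted p = 1.29e-05, limma). Without wild-type array 1, 2 genes of this list fell.

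**Figure D4:**
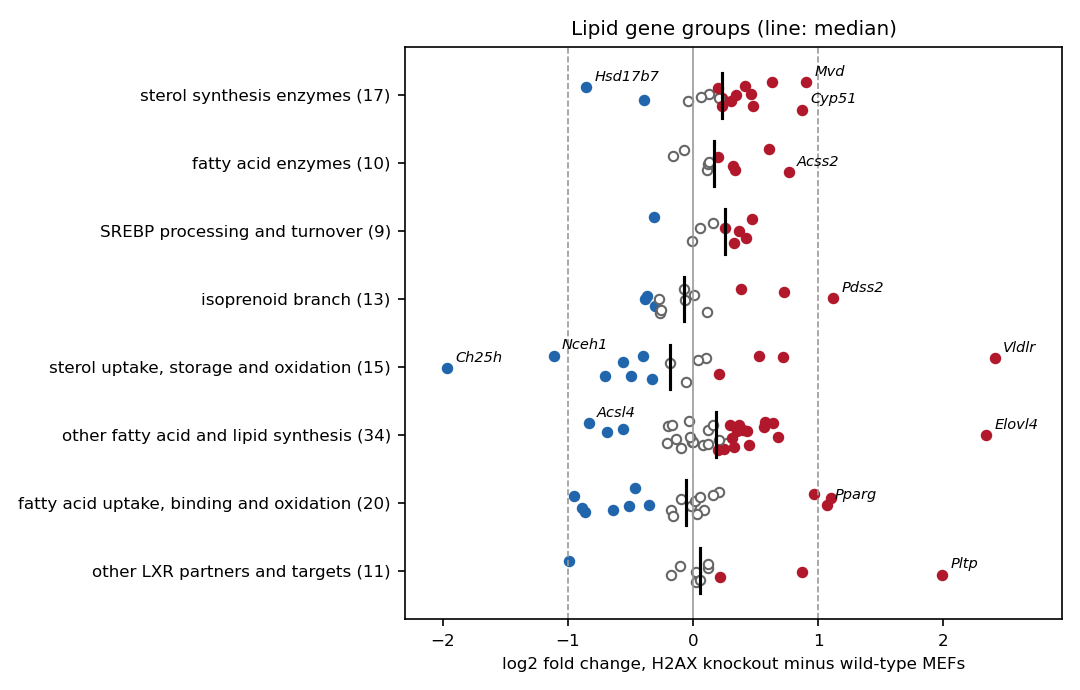
Log2 fold change (H2AX knockout minus wild-type MEFs) of every measured gene in 8 lipid lists, with the number of genes in parentheses, filled points for genes at an adjusted p under 0.05 (red higher, blue lower), a black line at the median of the list and dashed lines at a 2-fold difference. The sterol and fatty acid enzymes stay within the dashed lines, whereas Vldlr, Elovl4 and Pltp lie near or above 2 and Ch25h near -2.

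Of 10 macrophage markers 1 rose (Cd68, log2 fold change 0.29) and 1 fell (Cd14, -0.38), 10.0% each way, against 18.4% and 15.0% of all genes. Their mean level was 5.26 to 5.34 on the knockout arrays and 5.23 to 5.33 on the wild-type arrays. The mean level of the 8 epithelial markers was 5.43 to 5.57 on the knockout arrays and 5.43 to 5.46 on the wild-type arrays. Of 9 measured proliferation genes 1 rose (Mcm5, 0.66) and 1 fell (Pcna, -0.33), 11.1% each way. The mean level of the 9 was 10.49 to 10.57 on the knockout arrays and 10.41 to 10.52 on the wild-type arrays. Of the fibroblast markers, 6 of 10 rose (60.0%) and 3 fell (30.0%), against 18.4% and 15.0% of all genes. The largest rise was that of Pdgfrb, at a log2 fold change of 1.70. The part of cell growth and of the fibroblast markers in the lipid gene values was not tested.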

How the data were processed

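Gene expression was measured in total RNA of H2AX KO and wild-type MEFs on 6 arrays. According to the labels and the methods, the authors used Affymetrix Expression Console for CHP files and Partek (version 6.6) for normalization. They deposited log2 values of 35556 probe sets, between 2.94 and 13.7. How background was corrected and probes were summarized is not stated in the sources read here, and values scaled this way do not show a genotype difference in total RNA. The number of arrays limits the precision: with 3 against 3, an exact permutation test of a single gene cannot go below p = 0.10.

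Gene names came from the annotation that the probe set identifiers match, that of the Mouse Gene 1.0 ST array (version 2.0 in the methods). Of the probe sets, 21789 carried 1 symbol, 1621 carried several and 12146 were not listed, and only the first were used. A RefSeq table of GRCm38.p6 gave current symbols (21698 matched). For genes with several probe sets, that with the highest mean was taken. Genotypes were compared with limma (version 3.58.1, R version 4.3.3) without covariates or filter, with Benjamini-Hochberg adjustment over all 19938 genes, and the code was tested on simulated data. A call required an adjusted p under 0.05, and, where stated, a fold change over 2.

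The members and the gene lists were chosen with earlier results of these data known. Values on each array are given for members past both thresholds, for the 3 largest called changes in each role, and for Srebf1, Srebf2, Insig1, Scap and Nr1h3. Other members with such values were chosen after these were seen. From each other list, the 2 largest called rises and 2 largest called falls are named. Promoter windows came from RefSeq, and motifs were searched on both strands. Alternatives were each array left out, a replicate block, the unmoderated test of the methods, another variance prior, quantile and median scaling, a filter on dim genes, the mean of probe sets, array weights, a fold of 1.5, and all probe sets. Arrays of a genotype shared at most 0.087% of identical values.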

Additional observations from a re-analysis of the deposited data

How the results depend on the processing

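The medians of the sterol enzymes (0.23) and the fatty acid enzymes (0.16) stayed within 0.19 to 0.29 and 0.15 to 0.20 with each array left out. The members past a 2-fold change numbered 1 (1 to 2 with each array left out, 2 without knockout array 1) and 7 at a fold of 1.5. With each array left out, the members that rose numbered 11 to 16 (18 with all arrays) and those that fell 4 to 7 (6), the sterol enzymes that rose 7 to 11 (11), the regulators that rose 0 to 2 (2) and that fell 0 to 2 (2), and the fatty acid enzymes that rose 4 to 5 (5) and that fell 0 to 1 (0). The unmoderated test of the methods called 10 members, 6 sterol enzymes and 0 regulators as higher, and 1 sterol enzyme and 1 regulator as lower. Over all genes it called 2544 as higher and 2165 as lower. Quantile normalization and the test of all probe sets each left 0 regulators as higher. With array weights, where knockout array 3 weighed 6.17 and the others 0.36 to 1.60, Fasn fell (1 fatty acid enzyme).

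In the other lists, the unmoderated test called 2 genes of SREBP processing as higher and 0 of the isoprenoid branch as lower, and all probe sets gave 3 and 1. Array weights gave 5 falls in the isoprenoid branch, 6 in other lipid synthesis and 2 among LXR partners, and 5 rises in fatty acid uptake, which were 1 without the dimmer genes. The variance prior with trend and quantile normalization each gave 2 falls among LXR partners. With each array left out, rises in SREBP processing numbered 2 to 5, and falls in the isoprenoid branch 1 to 5, in other lipid synthesis 3 to 6 and among LXR partners 1 to 2.

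Deviations from the genotype means correlated at -0.29, -0.24 and 0.08 for same-numbered arrays, and at -0.16 to 0.32 for differently numbered arrays. With only 3 arrays per genotype, centred within it, these values cannot decide whether the arrays were paired. A replicate block left 7 sterol enzymes as higher and 3170 genes over the whole table.

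Direction changed only for genes that had not passed. With each array left out, Idi1 lay between -0.1995 and 0.1494, Sc5d between -0.0009 and 0.1488, Elovl6 between -0.1170 and 0.0019, Nr1h3 between -0.0629 and 0.0666 and Abcg1 between -0.0744 and 0.0513. Median centring turned Idi1 to 0.0002 and Abcg1 to 0.0114, quantile normalization turned Abcg1 to 0.0001, and array weights turned Nr1h3 to -0.0446. Of 553 values of single members under these alternatives, 478 kept their direction and side of the threshold, 58 lost the call, 5 gained it and 12 changed sign. Of 343 values of the other named genes, 337 kept both. The cause of these shifts was not tested. Median centring moved the median of all genes to 0.06, under 0.1. Without intensities and background values, dim genes such as Nr1h3 and Abcg1 cannot be told from background.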
